A study of Mus musculus with 12 samples.

Results

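The genes described here are the kinases of the mitogen-activated protein (MAP) kinase cascade. They were chosen by symbol: a probe set was kept when the platform annotation gave it exactly 1 gene symbol and that symbol was Mapk, Map2k, Map3k or Map4k followed directly by a digit, and symbols of the interacting proteins (those containing "ip") were left out. The rule found 37 of the 18193 genes measured, read by 94 probe sets: 11 MAP kinases (MAPK), 7 MAP kinase kinases (MAP2K), 16 MAP kinase kinase kinases (MAP3K) and 3 kinases of the MAP4K tier. By their names, 2 of the 37 are not kinases: Map2k3os is an opposite-strand transcript of Map2k3, and Map3k7cl is a Map3k7 C-terminal-like gene; neither passed the test in any comparison. RefSeq lists 45 genes that fit the symbols, and the 37 measured matched it by gene identifier. Those not analysed here include Map2k7, Map3k13, Map3k15, Map3k19, Map4k2 and Map4k3.

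The cascade passes a signal down by phosphorylation: a MAP4K or another upstream input activates a MAP3K, the MAP3K activates a MAP2K, and the MAP2K activates a MAP kinase on a threonine and a tyrosine. The arms end in ERK, JNK, p38 and ERK5, which phosphorylate transcription factors and further kinases. In the thymus, ERK signalling below the T cell receptor is known for its part in positive selection, and JNK and p38 have been studied in negative selection and at the pre-T cell receptor checkpoint.

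Thymocytes of C57BL/6 mice, untreated and lysed straight after isolation with no culture, were sorted by flow cytometry into 4 groups of 3 Affymetrix arrays each. DN cells lacked CD4, CD8 and the T cell receptor beta chain, and DP cells carried CD4 and CD8. CD4SP and CD8SP cells carried 1 coreceptor and high levels of the receptor beta chain. The labels give no age or sex and do not say whether each replicate is another mouse. The p-values therefore measure the spread among these samples, which may be technical. The questions the sort poses are how the cascade genes differ between successive stages (DN to DP, DP to either single-positive subset) and between the single-positive subsets.

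The deposited values are logarithms, taken to be of base 2, with the mean of the 3 DP arrays subtracted from every probe set. DP therefore sits at 0 for every gene, a value of 1 is a doubling relative to DP, and neither absolute level nor detection can be read, so genes are not ranked by level and a flat gene may be one the cells do not express. Probe sets of 1 gene were averaged. Differences were tested with limma over all 18193 genes, and a gene is said to rise or fall where its Benjamini-Hochberg adjusted p was under 0.05. In sorted bulk samples, fewer cells of a type and less RNA per cell cannot be told apart.

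The coreceptor genes followed the sort: Cd4 was higher in CD4SP than in CD8SP by 8.26 on the log2 scale and Cd8a differed by -6.20, and Rag1 differed from DP by -9.24 in CD4SP and -9.21 in CD8SP. The DN arrays also read above DP for many markers of other cell types. The mean over 11 myeloid and dendritic cell markers was 1.90 to 3.22 above DP on the DN arrays, against -0.21 to 0.20 on the DP arrays; 6 of the 11 were called lower in DP. The corresponding DN ranges were 1.47 to 2.91 for 7 natural killer and innate lymphoid markers, of which 7 were called. They were 2.35 to 2.92 for 4 gamma delta T cell markers, of which 4 were called, and 0.49 to 2.36 for 7 B cell markers, of which 3 were called. Of all genes 18.8% were called lower in DP than in DN. The DN medians were 0.25 to 1.04 for the myeloid list, 1.48 to 2.15 for the gamma delta list and -0.24 to 1.47 for the B cell list. On the CD8SP arrays 3 of the 7 natural killer genes, Nkg7, Klrd1 and Eomes, were above DP, by 7.52, 5.90 and 4.73, and the other 4 differed by -0.09 to 0.55 and were not called. The list's median was 0.44 to 0.67 on those arrays, 0.36 to 0.74 on the CD4SP arrays and 0.85 to 2.69 on the DN arrays. With values relative to DP, no marker can be said to be at 0. Whether other cells or the DN thymocytes themselves carried the markers that were above DP in DN was not tested. The part of such cells in the differences from DN was not tested either. The arrays CD8SP 1 and DN 1 stood apart: limma's array weights were 0.276 and 0.527, against 0.694 to 1.809 on the others, and the hybridisation controls on CD8SP 1 averaged 0.95, against -0.16 to 0.14 elsewhere.

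Expression of the cascade genes was higher in DP than in DN more often than lower. The 11 genes that passed the test between CD4SP and CD8SP were all higher in CD4SP, while with limma's array weights 2 were called lower. Map4k5, a JNK-activating kinase of the MAP4K tier, rose 11.4-fold from DN to DP and was lower again in both single-positive subsets. Mapk11, which encodes p38 beta, rose 3.97-fold from DP to CD4SP and 1.46-fold to CD8SP. Map2k6, the kinase above p38, was 3.27-fold lower in CD8SP than in DP. Map2k1, Map2k2, Map3k3 and Map3k8 were also higher in both single-positive subsets than in DP. Map2k3, Map2k5, Map2k6, Map3k2, Map3k20 and Mapk6 were lower in both, like Map4k5. Leaving out 1 array could end the calls of Map2k3 in CD8SP and of Map2k6, Map3k8 and Mapk6 in CD4SP. Those of Map3k20 rested on 2 of its 4 probe sets, and its CD8SP difference turned with the probe set of smallest spread.

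**Figure D1:**
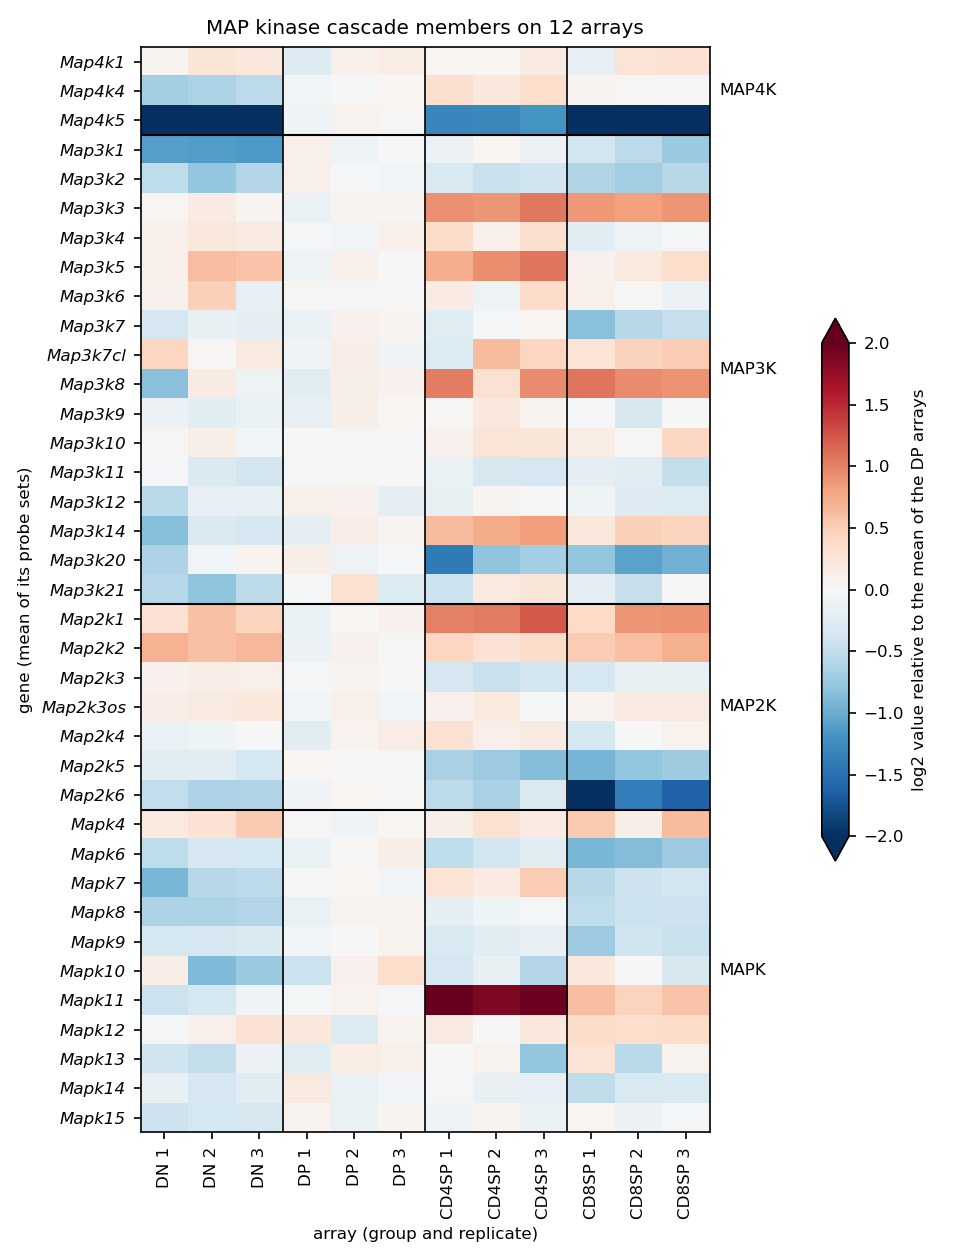
The log2 value relative to the DP mean (colour, limited to 2 in either direction) of all 37 members (rows, by tier) on the 12 arrays (columns, by group). Map4k5 is the darkest low value on the DN arrays, at -3.99 to -3.15, and Mapk11 the strongest high value on the CD4SP arrays, at 1.86 to 2.14.

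Promoter sequences of the 4 members with the clearest contrasts are shown so that the genes behind the values can be read: Mapk11 (high in CD4SP), Map2k6 (low in CD8SP), Map4k5 (high in DP) and Map3k3 (high in both single-positive subsets). Each is the 250 bases before the RefSeq start, 5′ to 3′ on the gene's strand, in build GRCm38.p6: Mapk11 at chr15:89149607-89149856 (minus strand), Map2k6 at chr11:110398852-110399101 (plus strand, the first of 3 annotated starts), Map4k5 at chr12:69893164-69893413 (minus strand) and Map3k3 at chr11:106084337-106084586 (plus strand). Capitals mark matches on either strand to any of 6 motifs: the GC box GGGCGG, the ETS motif CCGGAAG, the RUNX motif TGTGGT, the AP-1 motif TGANTCA, the cyclic AMP response element TGACGTCA and the TCF/LEF motif CTTTGA.
Mapk11: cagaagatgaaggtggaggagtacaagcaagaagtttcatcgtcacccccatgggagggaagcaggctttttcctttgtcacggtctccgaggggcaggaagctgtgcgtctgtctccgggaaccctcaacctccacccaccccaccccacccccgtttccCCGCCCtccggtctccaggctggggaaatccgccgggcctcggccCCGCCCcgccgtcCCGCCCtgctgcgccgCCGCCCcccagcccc
Map2k6: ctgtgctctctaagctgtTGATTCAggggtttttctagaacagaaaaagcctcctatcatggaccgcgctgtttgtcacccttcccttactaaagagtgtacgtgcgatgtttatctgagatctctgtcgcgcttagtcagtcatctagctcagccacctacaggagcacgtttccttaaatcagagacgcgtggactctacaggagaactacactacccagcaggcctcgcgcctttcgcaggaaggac
Map4k5: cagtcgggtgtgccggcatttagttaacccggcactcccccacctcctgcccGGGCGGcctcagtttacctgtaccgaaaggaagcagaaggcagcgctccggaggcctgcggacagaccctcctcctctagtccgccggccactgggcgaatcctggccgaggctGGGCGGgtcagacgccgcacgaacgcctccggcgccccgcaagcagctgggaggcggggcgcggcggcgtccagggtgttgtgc
Map3k3: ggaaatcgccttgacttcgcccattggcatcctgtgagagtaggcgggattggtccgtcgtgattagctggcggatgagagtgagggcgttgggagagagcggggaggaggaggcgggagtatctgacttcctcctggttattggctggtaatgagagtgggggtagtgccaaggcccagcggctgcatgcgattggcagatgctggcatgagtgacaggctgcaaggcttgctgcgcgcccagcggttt

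The Mapk11 window held 4 GC boxes, the Map4k5 window 2, the Map2k6 window 1 AP-1 motif, and the Map3k3 window none of the 6. Of the 31 members with a window in the table, 22 (71%) held a GC box at their first start, against 33% of the 32536 promoter windows of all genes. The ETS motif was found in 3 of the 31 (9.68%, against 6.95% of all windows), the AP-1 motif in 2 (6.45%, against 6.73%), the RUNX motif in 2 (6.45%, against 14%), and the cyclic AMP response element (3.23%, against 1.56%) and the TCF/LEF motif (3.23%, against 13.9%) in 1 each. The members' shares count only the first start of each gene. The shares of all windows count every distinct window, alternative starts included, with no limit to the genes measured here. The units are thus unlike, and enrichment was not tested. A match describes the letters and not a bound site.

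From DN to DP, 13 of the 37 members rose and 3 fell, against 17.8% and 18.8% of all genes; 43.2% of members were called in either direction, against 36.6%. The median difference over the members was 0.24, against 0.04 over all genes. The arrays of the groups did not overlap for 23 members, against 49.8% of all genes. By tier, 5 of 11 MAP kinases rose and none fell, 2 of 7 MAP2K genes rose and 2 fell, 4 of 16 MAP3K genes rose and 1 fell, and 2 of 3 MAP4K genes rose. With DN 1 and CD8SP 1 left out the counts were again 13 and 3.

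From DP to CD4SP, 8 members rose and 7 fell, against 16.4% and 16.2% of all genes, so that 40.5% were called, against 32.7%. The median was 0.08, against 0.04 over all genes, and the arrays of 21 members did not overlap (49.4% of all genes). From DP to CD8SP, 7 rose and 13 fell, against 18.2% and 20.9%, so that 54.1% were called, against 39% of all genes. The median was -0.09, against 0.00 over all genes, and 24 members had arrays that did not overlap (48.6% of all genes). Both comparisons use the same DP arrays, so their counts are not independent. Without DN 1 and CD8SP 1 the counts were 10 and 9 in CD4SP and 6 and 13 in CD8SP. In the MAP kinase tier, 1 of 11 rose and 1 fell in CD4SP, and 3 rose and 5 fell in CD8SP. The MAP3K tier had 4 of 16 higher and 2 lower in CD4SP, and 2 higher and 4 lower in CD8SP.

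Between the single-positive subsets, 11 members were higher in CD4SP than in CD8SP and 0 were lower, against 7.78% and 4.91% of all genes; 29.7% were called, against 12.7%. At an unadjusted p under 0.05 in limma, 17 members were higher and 1, Map2k2, was lower, and 12 of the 37 differences were below 0. With limma's array weights 2 members were called lower. With the probe set of smallest spread taken for each gene 2 were called lower, and without DN 1 and CD8SP 1 the counts were 10 higher and 1 lower. When the fit was limited to the 6 single-positive arrays, 5 members were called higher and 0 lower. The median over the members was 0.21, against 0.03 over all genes, and 21 had arrays that did not overlap (30.3% of all genes). The members called were Mapk6, Mapk7, Mapk8 and Mapk11 of the MAP kinases, Map2k6, Map3k1, Map3k4, Map3k5 and Map3k7 above them, and Map4k4 and Map4k5.

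**Figure D2:**
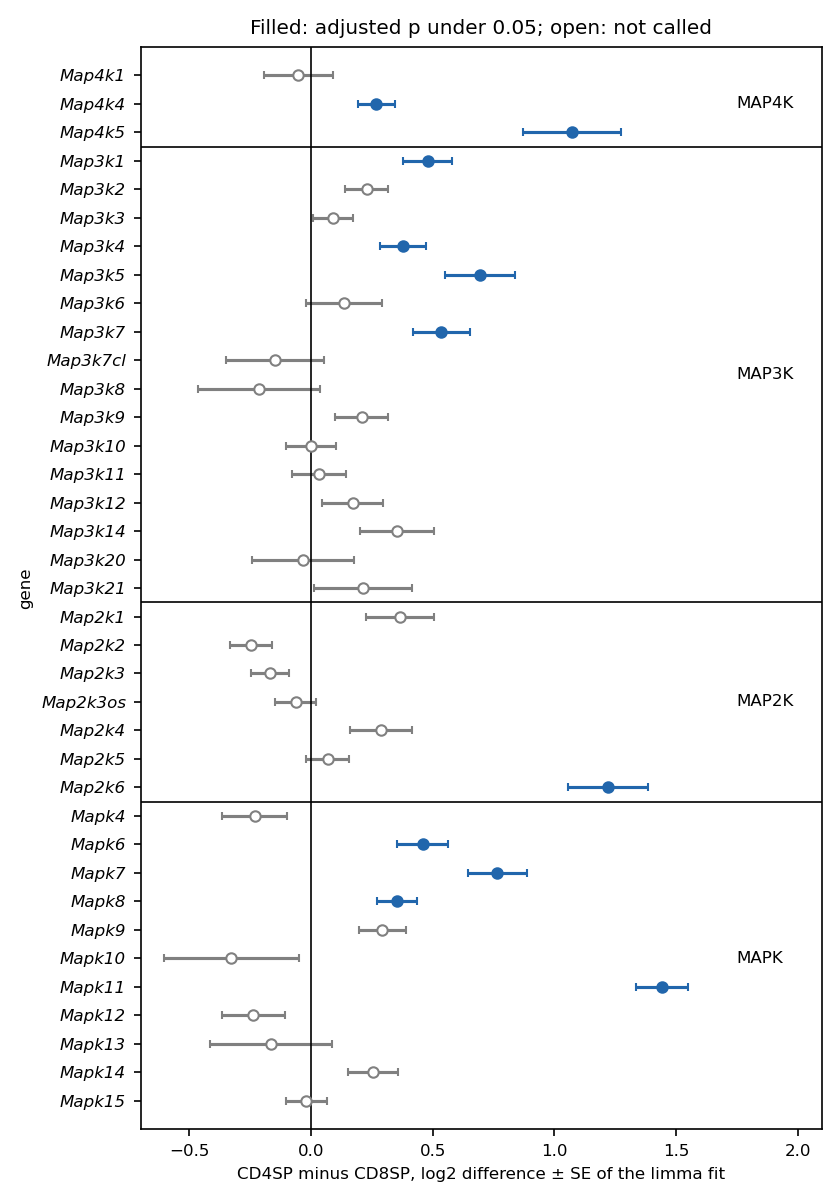
The CD4SP minus CD8SP difference (log2, with its standard error from limma as the bar) of each of the 37 members, filled where the adjusted p was under 0.05 and open otherwise. The 11 filled points lie between 0.27 (Map4k4) and 1.44 (Mapk11); the lowest open point, Mapk10 at -0.33, has the widest bar.

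The group with the highest mean was DP for 16 members (43.2%, against 26.2% of all genes), CD4SP for 13 (35.1%, against 25.6%), and DN and CD8SP for 4 each (10.8%, against 26.4% and 21.8%). The lowest mean was in DN for 15 members (40.5%, against 33.7%), in DP for 11 (29.7%, against 25.9%), in CD8SP for 9 (24.3%, against 23.2%) and in CD4SP for 2 (5.41%, against 17.2%). The DN to DP comparison and the CD4SP to CD8SP comparison share no arrays. Of the 13 members that rose from DN to DP, 7 (53.8%) were also higher in CD4SP than in CD8SP, which is 63.6% of the 11 called there. Over all genes, 697 were called both ways, 21.5% of the 3240 that rose from DN to DP and 49.3% of the 1415 higher in CD4SP. The 7 members were Map2k6, Map3k1, Map4k4, Map4k5, Mapk6, Mapk7 and Mapk8.

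In the MAP4K tier, Map4k5 (germinal centre kinase-related, known for activating the JNK arm) had values of -3.38, -3.99 and -3.15 on the DN arrays, -0.09, 0.07 and 0.02 on the DP arrays, -1.31, -1.28 and -1.20 on the CD4SP arrays and -2.67, -2.29 and -2.05 on the CD8SP arrays. The 4 groups did not overlap, in the order DN, CD8SP, CD4SP, DP from low to high. Map4k5 rose from DN to DP by 3.51 ± 0.20 (log2 ± SE, adjusted p = 4.56e-07 in limma), the largest difference of any member in any of the 4 comparisons. From DP it fell by 1.26 in CD4SP (adjusted p = 0.000577) and fell by 2.34 in CD8SP (adjusted p = 5.99e-06), and it was higher in CD4SP than in CD8SP by 1.07 (adjusted p = 0.0061). Each of its 3 probe sets gave the DN to DP rise, at 3.29, 3.39 and 3.84. For the difference between the single-positive subsets they gave, in the same order, 1.27, 0.95 and 0.99, the last with an adjusted p of 0.0861 at the probe-set level.

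Map4k4, also placed upstream of JNK, was at -0.69, -0.63 and -0.53 in DN, -0.05, 0.01 and 0.04 in DP, 0.33, 0.20 and 0.35 in CD4SP and 0.05, 0.03 and -0.00 in CD8SP. DN lay below all other arrays and CD4SP above them. It rose from DN to DP by 0.62 ± 0.075 (adjusted p = 8.5e-05) and from DP to CD4SP by 0.29 (adjusted p = 0.0112, with 1 of its 5 probe sets called when tested alone), and was higher in CD4SP than in CD8SP by 0.27 (adjusted p = 0.0397). The CD4SP against DP call was lost with the median of probe sets (0.26, adjusted p = 0.0601), with probe sets without a suffix (0.24, adjusted p = 0.0778) and with quantile normalization (0.24, adjusted p = 0.127). The CD4SP against CD8SP call was lost when any of DN 2, DP 2, DP 3, CD4SP 1, CD4SP 3, CD8SP 2 or CD8SP 3 was left out, with values of 0.24 to 0.27 and adjusted p of 0.0597 to 0.138, and with the median of probe sets (0.16, adjusted p = 0.338). Map4k1 (HPK1), a haematopoietic kinase known for restraining T cell receptor signalling, passed the test in no comparison: its group means were 0.17 in DN, 0.08 in CD4SP and 0.13 in CD8SP, and every pair of groups tested overlapped.

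**Figure D3:**
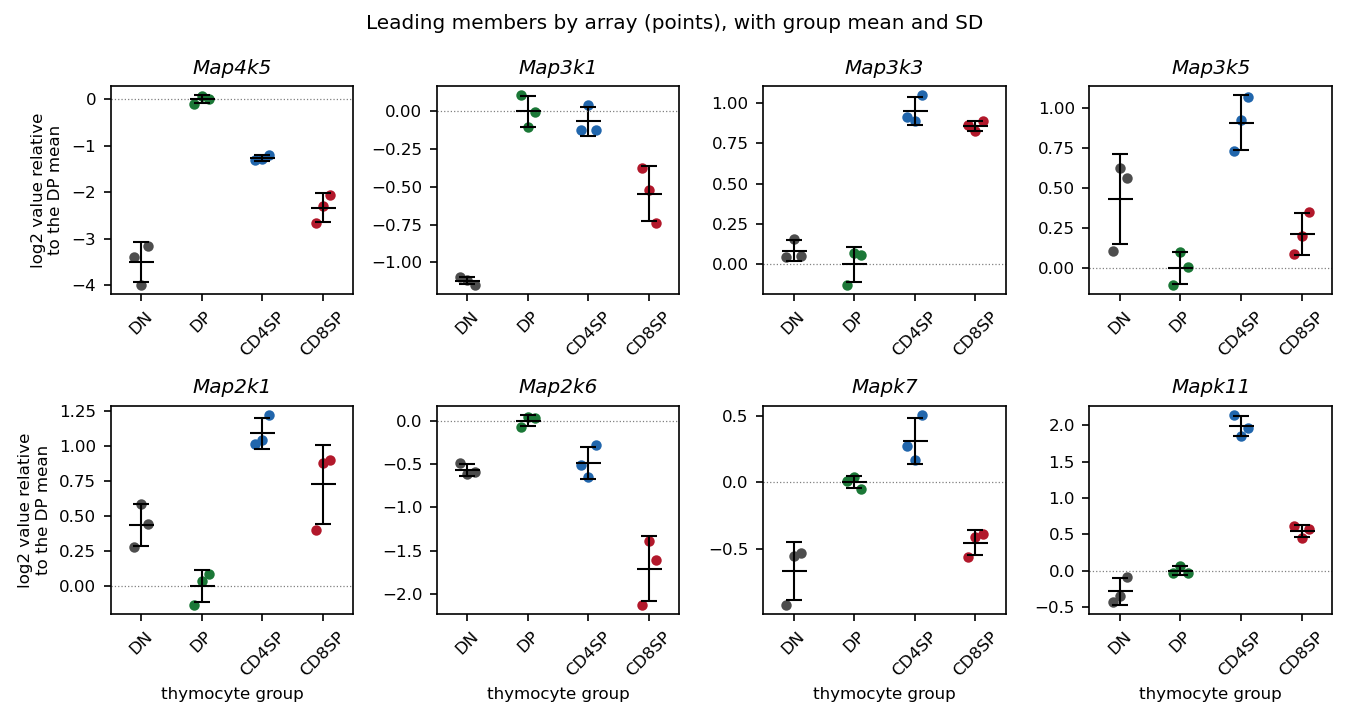
Log2 value relative to the DP mean (vertical axis) of 8 members on each array (points), by thymocyte group, with the group mean and SD of 3 arrays. Map4k5 runs from -3.99 in DN to 0.07 in DP, Mapk11 reaches 1.86 to 2.14 in CD4SP, and Map2k6 lies at -2.12 to -1.39 in CD8SP.

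Among the MAP3K genes, Map3k1 (MEKK1, which feeds the JNK arm) was at -1.10, -1.12 and -1.15 in DN, 0.10, -0.10 and -0.00 in DP, -0.12, 0.04 and -0.12 in CD4SP and -0.38, -0.52 and -0.74 in CD8SP. DN was lowest with a spread of 0.03 (SD, n = 3), CD8SP lay between, and DP and CD4SP overlapped. It rose from DN to DP by 1.12 ± 0.10 (adjusted p = 1.09e-05) and fell from DP to CD8SP by 0.55 (adjusted p = 0.00145). It was higher in CD4SP than in CD8SP by 0.48 (adjusted p = 0.0116). Map3k2 (MEKK2), which with MEKK3 is known to activate MEK5, followed a like order, at -0.51, -0.77 and -0.59 in DN, 0.10, -0.05 and -0.05 in DP, -0.31, -0.45 and -0.40 in CD4SP and -0.60, -0.70 and -0.55 in CD8SP. DP lay above all other arrays, and DN and CD8SP overlapped. Map3k2 rose from DN to DP by 0.62 ± 0.09 (adjusted p = 0.000287) and fell by 0.39 in CD4SP (adjusted p = 0.00667) and 0.62 in CD8SP (adjusted p = 0.000277).

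Map3k3 (MEKK3) moved at the other step. Its values were 0.04, 0.16 and 0.05 in DN, -0.13, 0.07 and 0.06 in DP, 0.92, 0.89 and 1.05 in CD4SP and 0.86, 0.83 and 0.89 in CD8SP. The single-positive arrays all lay above the DN and DP arrays, which overlapped with each other. It rose by 0.95 ± 0.08 in CD4SP (adjusted p = 6.48e-06) and by 0.86 in CD8SP (adjusted p = 1.23e-05); the subsets differed by 0.09 (adjusted p = 0.533). Map3k8 (TPL2, which activates MEK1 and MEK2) read -0.84, 0.16 and -0.10 in DN, -0.21, 0.12 and 0.09 in DP, 1.02, 0.30 and 0.95 in CD4SP and 1.07, 0.95 and 0.90 in CD8SP. The single-positive arrays were again above DP, with CD4SP 2 the lowest of them and DN 1 the lowest of all 12. The rise was 0.97 ± 0.25 in CD8SP (adjusted p = 0.00981) and 0.76 in CD4SP (adjusted p = 0.0383). Of the alternatives, only quantile normalization ended the CD8SP call (0.74, adjusted p = 0.121). The CD4SP call was lost without DP 1, DP 2, DP 3, CD4SP 1, CD4SP 3 or CD8SP 2 (0.63 to 0.82, adjusted p = 0.0516 to 0.127).

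Map3k5 (ASK1, a stress-responsive kinase above JNK and p38) was at 0.11, 0.62 and 0.56 in DN, -0.10, 0.10 and 0.01 in DP, 0.73, 0.93 and 1.07 in CD4SP and 0.09, 0.20 and 0.35 in CD8SP. CD4SP was above every other array, and CD8SP overlapped DP. Map3k5 rose from DP to CD4SP by 0.91 ± 0.14 (adjusted p = 0.000563) and was higher in CD4SP than in CD8SP by 0.70 (adjusted p = 0.0101). It fell from DN to DP by 0.43 (adjusted p = 0.0367), a call lost without DN 2, DN 3, DP 1, DP 2, DP 3 or CD4SP 2, where the difference was -0.48 to -0.34 and the adjusted p 0.0509 to 0.135. Map3k14 (NIK, known for the non-canonical NF-kappaB pathway) read -0.85, -0.29 and -0.34 in DN, -0.19, 0.14 and 0.05 in DP, 0.63, 0.74 and 0.83 in CD4SP and 0.22, 0.48 and 0.45 in CD8SP. The 4 groups did not overlap, in the order DN, DP, CD8SP, CD4SP. It rose from DP to CD4SP by 0.73 ± 0.15 (adjusted p = 0.00351), and in CD8SP the difference of 0.38 had an adjusted p of 0.0721. Only quantile normalization, of the alternatives, ended the CD4SP call (0.59, adjusted p = 0.105). The rise of 0.49 from DN to DP (adjusted p = 0.027) was lost without DN 1, DP 2 or DP 3 (0.31 to 0.46, adjusted p = 0.0786 to 0.0942).

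Map3k20 (ZAK, activated by ribosome stress) was lower in both single-positive subsets, at -0.61, -0.06 and 0.08 in DN, 0.13, -0.10 and -0.02 in DP, -1.42, -0.81 and -0.68 in CD4SP and -0.78, -1.06 and -0.95 in CD8SP. The single-positive arrays lay below all DN and DP arrays, with CD4SP 1 the lowest. The falls were 0.97 ± 0.21 in CD4SP (adjusted p = 0.00454) and 0.93 in CD8SP (adjusted p = 0.0047). Map3k7 (TAK1, which acts below antigen and cytokine receptors) fell in CD8SP by 0.62 ± 0.12 (adjusted p = 0.00171), with group means of -0.22 in DN, -0.08 in CD4SP and -0.62 in CD8SP, and was higher in CD4SP than in CD8SP by 0.54 (adjusted p = 0.0139). That last call was lost without CD4SP 2 or CD4SP 3 (0.48 to 0.51, adjusted p = 0.051 to 0.0616). Map3k4 (MEKK4, which binds GADD45 proteins) was higher in CD4SP than in CD8SP by 0.38 ± 0.09 (adjusted p = 0.0247), lost without CD4SP 1, CD4SP 3, CD8SP 1 or CD8SP 2 (0.32 to 0.39, adjusted p = 0.0547 to 0.0908). Map3k21, a mixed-lineage kinase, rose from DN to DP by 0.63 ± 0.20 (adjusted p = 0.0303), lost without DN 1, DN 2, DP 1 or DP 2 (0.48 to 0.66, adjusted p = 0.0542 to 0.115). The other MAP3K members, Map3k6 (ASK2), the mixed-lineage kinases Map3k9, Map3k10 and Map3k11, Map3k12 (DLK) and Map3k7cl, passed the test in no comparison. The lowest adjusted p among the kinases was 0.0553, for Map3k11 in CD8SP against DP, at -0.30. Tested alone, 1442218_at of Map3k9 was called lower in CD8SP than in DP (-0.52, adjusted p = 0.00279) and than in CD4SP (CD4SP minus CD8SP 0.45, adjusted p = 0.0196). For Map3k12, 1417115_at was called higher in DP than in DN (0.77, adjusted p = 0.00333). For Map3k10, 1457456_at was called higher in CD8SP than in DP (0.48, adjusted p = 0.0144). The other probe sets of these genes were not called.

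In the MAP2K tier, the kinases above ERK and those above p38 and ERK5 are described in turn. Map2k1 (MEK1) was at 0.28, 0.59 and 0.44 in DN, -0.13, 0.04 and 0.09 in DP, 1.01, 1.04 and 1.22 in CD4SP and 0.41, 0.88 and 0.90 in CD8SP, and Map2k2 (MEK2) at 0.70, 0.59 and 0.66 in DN, -0.12, 0.09 and 0.03 in DP, 0.42, 0.29 and 0.36 in CD4SP and 0.50, 0.60 and 0.72 in CD8SP. For both genes, DP was below all other arrays. The highest group was CD4SP for Map2k1, and DN and CD8SP, which overlapped, for Map2k2. Map2k1 rose from DP by 1.09 ± 0.14 in CD4SP (adjusted p = 0.000124) and by 0.73 in CD8SP (adjusted p = 0.00176). Map2k2 rose by 0.36 ± 0.09 in CD4SP (adjusted p = 0.00801) and by 0.61 in CD8SP (adjusted p = 0.000223), and it fell from DN to DP by 0.65 (adjusted p = 0.000156). Map2k1 fell from DN to DP by 0.44 (adjusted p = 0.0307), which was lost without DN 2, DN 3, DP 1 or DP 2 (-0.46 to -0.36, adjusted p = 0.0604 to 0.111). Between the single-positive subsets Map2k1 differed by 0.36 (adjusted p = 0.122) and Map2k2 by -0.25 (adjusted p = 0.0898). Tested alone, the Map2k2 probe set 1460636_at was called lower in CD4SP than in CD8SP (-0.335, adjusted p = 0.0241).

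Map2k6 (MKK6) was lowest in CD8SP. Its values were -0.49, -0.61 and -0.60 in DN, -0.07, 0.04 and 0.03 in DP, -0.52, -0.65 and -0.29 in CD4SP and -2.12, -1.39 and -1.61 in CD8SP. DP was above all other arrays, DN and CD4SP overlapped, and CD8SP was below all others. Map2k6 fell from DP to CD8SP by 1.71 ± 0.16 (adjusted p = 1.31e-05) and was higher in CD4SP than in CD8SP by 1.22 (adjusted p = 0.000966). The fall to CD4SP of 0.49 (adjusted p = 0.0424) was lost when any of DN 1, DN 2, DN 3, DP 1, DP 2, DP 3, CD4SP 1, CD4SP 2 or CD8SP 3 was left out (-0.52 to -0.40, adjusted p = 0.0519 to 0.145). The rise of 0.57 from DN to DP (adjusted p = 0.0193) was lost without DN 2, DN 3, DP 2 or DP 3 (0.54 to 0.55, adjusted p = 0.0525 to 0.0578). Map2k3 (MKK3), the other p38 kinase of this tier, was at 0.08, 0.14 and 0.10 in DN, -0.04, 0.05 and -0.01 in DP, -0.34, -0.44 and -0.37 in CD4SP and -0.36, -0.15 and -0.15 in CD8SP. The single-positive arrays were below all DN and DP arrays. Map2k3 fell by 0.39 ± 0.08 in CD4SP (adjusted p = 0.00286), and its fall of 0.22 in CD8SP (adjusted p = 0.0478) was lost when any of the 12 arrays was left out (-0.25 to -0.15, adjusted p = 0.0502 to 0.141).

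Map2k5 (MEK5), which activates ERK5, read -0.21, -0.21 and -0.35 in DN, 0.04, 0.00 and -0.04 in DP, -0.65, -0.72 and -0.86 in CD4SP and -0.93, -0.80 and -0.71 in CD8SP. DN lay between DP and the single-positive arrays, which overlapped each other. It fell from DP by 0.74 ± 0.09 in CD4SP (adjusted p = 6.63e-05) and by 0.81 in CD8SP (adjusted p = 3.02e-05). The DN to DP rise of 0.26 (adjusted p = 0.0392) was lost without any of the DN arrays, any of the DP arrays, CD4SP 2 or CD8SP 2 (0.21 to 0.28, adjusted p = 0.0523 to 0.13). Map2k4 (MKK4), which activates JNK and p38, was at -0.14, -0.09 and -0.00 in DN, -0.21, 0.07 and 0.14 in DP, 0.31, 0.10 and 0.17 in CD4SP and -0.35, 0.01 and 0.06 in CD8SP. CD4SP lay above CD8SP and the other comparisons overlapped, and no difference passed the test, with adjusted p of 0.182 to 0.687. Map2k3os differed by -0.17 to 0.14 across the comparisons.

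Among the MAP kinases, Mapk11 (p38 beta) was at -0.43, -0.34 and -0.09 in DN, -0.04, 0.07 and -0.03 in DP, 2.14, 1.86 and 1.97 in CD4SP and 0.62, 0.45 and 0.57 in CD8SP. The groups did not overlap, with CD4SP above every other array, followed by CD8SP. Mapk11 rose from DP by 1.99 ± 0.11 in CD4SP (adjusted p = 2.36e-07) and by 0.55 in CD8SP (adjusted p = 0.00202), and was 2.72-fold higher in CD4SP than in CD8SP (1.44, adjusted p = 2.36e-05). The difference of 0.29 from DN to DP had an adjusted p of 0.0579. Mapk14 (p38 alpha), the p38 form known to be widely expressed, read -0.15, -0.34 and -0.22 in DN, 0.18, -0.13 and -0.05 in DP, -0.05, -0.16 and -0.16 in CD4SP and -0.51, -0.30 and -0.31 in CD8SP. CD8SP was below DP and CD4SP. The fall from DP to CD8SP was 0.37 ± 0.10 (adjusted p = 0.0137) and was lost without DP 1 (-0.28, adjusted p = 0.0535), in the fit on the 6 arrays compared (adjusted p = 0.0534), with the median of probe sets (-0.25, adjusted p = 0.053), with probe sets without a suffix (-0.27, adjusted p = 0.0546), with the probe set of smallest spread (-0.05, adjusted p = 0.746) and with quantile normalization (-0.24, adjusted p = 0.553).

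Mapk12 (p38 gamma) was at -0.04, 0.11 and 0.29 in DN, 0.21, -0.28 and 0.07 in DP, 0.17, 0.01 and 0.21 in CD4SP and 0.37, 0.36 and 0.37 in CD8SP, where it was above all other arrays. Its rise of 0.37 ± 0.13 from DP to CD8SP (adjusted p = 0.0424) was lost without DN 2, DP 2, DP 3, CD4SP 1, CD4SP 3 or any CD8SP array (0.23 to 0.40, adjusted p = 0.054 to 0.158). Mapk13 (p38 delta) was at -0.40, -0.48 and -0.12 in DN, -0.24, 0.14 and 0.09 in DP, -0.00, 0.07 and -0.77 in CD4SP and 0.27, -0.54 and 0.06 in CD8SP. The groups overlapped in every comparison and no difference passed the test, with adjusted p of 0.339 to 0.855. The CD4SP minus CD8SP difference, 1.44 for Mapk11, was 0.26 for Mapk14 (adjusted p = 0.138), -0.24 for Mapk12 (adjusted p = 0.278) and -0.16 for Mapk13 (adjusted p = 0.741). Whether Mapk11 differed from the other p38 genes in this was not tested.

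The JNK genes Mapk8 and Mapk9 rose from DN to DP and fell from DP to CD8SP. Mapk8 (JNK1) was at -0.62, -0.63 and -0.58 in DN, -0.14, 0.07 and 0.06 in DP, -0.18, -0.08 and -0.03 in CD4SP and -0.51, -0.43 and -0.41 in CD8SP. DN was below all other arrays, CD8SP came next, and DP and CD4SP overlapped. Mapk8 rose from DN to DP by 0.61 ± 0.08 (adjusted p = 0.000156) and fell from DP to CD8SP by 0.45 (adjusted p = 0.00111). It was higher in CD4SP than in CD8SP by 0.35 (adjusted p = 0.0164), lost without CD4SP 2 or CD4SP 3 (0.32 to 0.34, adjusted p = 0.0559 to 0.0707). Mapk9 (JNK2) was at -0.36, -0.34 and -0.29 in DN, -0.06, -0.01 and 0.07 in DP, -0.31, -0.21 and -0.16 in CD4SP and -0.73, -0.39 and -0.45 in CD8SP. DP was above all other arrays and CD8SP below them. Mapk9 fell from DP to CD8SP by 0.52 ± 0.09 (adjusted p = 0.00122). Its rise of 0.33 from DN to DP (adjusted p = 0.0183) was lost without DN 2 or DP 3 (0.30 to 0.33, adjusted p = 0.0525 to 0.0687), and CD4SP minus CD8SP was 0.29 (adjusted p = 0.0702). Mapk10 (JNK3), a form best known from the nervous system, had an SD of 0.55 (n = 3) in DN, and passed the test in no comparison. Tested alone, its probe sets 1448342_at (0.43, adjusted p = 0.035) and 1458513_at (0.51, adjusted p = 0.0091) were called higher in DP than in DN. Its other probe set, 1437195_x_at, read 1.42, -2.01 and -1.09 on the DN arrays and was not called.

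Mapk7 (ERK5) was at -0.92, -0.55 and -0.53 in DN, 0.01, 0.04 and -0.05 in DP, 0.27, 0.16 and 0.50 in CD4SP and -0.56, -0.41 and -0.39 in CD8SP. CD4SP was above all other arrays, DP next, and DN and CD8SP overlapped. Mapk7 rose from DN to DP by 0.67 ± 0.12 (adjusted p = 0.00132), fell from DP to CD8SP by 0.45 (adjusted p = 0.0124) and was higher in CD4SP than in CD8SP by 0.77 (adjusted p = 0.00242). From DP to CD4SP the difference of 0.31 had an adjusted p of 0.0725. Of the kinases known to act above ERK5, Map2k5 fell in both single-positive subsets, Map3k2 fell in both and Map3k3 rose in both.

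Mapk6 (ERK3), an atypical MAP kinase, was at -0.51, -0.34 and -0.36 in DN, -0.14, 0.02 and 0.12 in DP, -0.51, -0.39 and -0.23 in CD4SP and -0.91, -0.87 and -0.72 in CD8SP. DP was above all other arrays, CD8SP below them, and DN and CD4SP overlapped. Mapk6 fell from DP to CD8SP by 0.83 ± 0.10 (adjusted p = 8.57e-05) and rose from DN to DP by 0.40 (adjusted p = 0.0106). The fall of 0.38 in CD4SP (adjusted p = 0.0171) was lost without DP 2, DP 3, CD4SP 1 or CD4SP 2 (-0.37 to -0.31, adjusted p = 0.0502 to 0.0721), and the CD4SP minus CD8SP difference of 0.46 (adjusted p = 0.0155) without CD4SP 3 or CD8SP 2 (0.38 to 0.44, adjusted p = 0.0526 to 0.0677). Mapk4 (ERK4), its close relative, was at 0.20, 0.28 and 0.52 in DN, 0.03, -0.07 and 0.05 in DP, 0.12, 0.30 and 0.17 in CD4SP and 0.52, 0.12 and 0.64 in CD8SP. DP was below all other arrays, and the other 3 groups overlapped. Its rise of 0.43 ± 0.13 in CD8SP (adjusted p = 0.0271) was lost without any of the DP arrays, CD8SP 1 or CD8SP 3 (0.32 to 0.45, adjusted p = 0.0535 to 0.10). Array weights (0.32, adjusted p = 0.0679) and the fit on the 6 arrays compared (adjusted p = 0.0676) also ended this call. So did leaving out both DN 1 and CD8SP 1 (0.38, adjusted p = 0.0767) and quantile normalization (0.35, adjusted p = 0.121). Mapk15, another atypical member, rose from DN to DP by 0.37 ± 0.09 (adjusted p = 0.0063) and had group means of -0.37 in DN, -0.06 in CD4SP and -0.04 in CD8SP.

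Probe sets of the same gene did not always give the same size of difference. In no member and comparison were probe sets called in opposite directions when the probe sets were tested one by one. Of the Mapk11 probe sets, 1421926_at rose from DP by 2.86 in CD4SP and 0.94 in CD8SP, and 1421925_at by 1.12 and 0.16, the last not called (adjusted p = 0.32). For Mapk6 the DN to DP rise came from 1429963_at (1.13) and 1459146_at (0.84), with -0.08 at 1419168_at and -0.27 at 1419169_at. All 4 were called lower in CD8SP than in DP, at -0.99 to -0.54. For Map3k20 the fall was 1.92 in both single-positive subsets at 1435029_at and 0.66 and 0.64 at 1418943_at. At 1425847_a_at the differences from DP were -0.13 in CD4SP and 0.29 in CD8SP, neither called. Tested alone, this probe set was called lower in CD4SP than in CD8SP (-0.42, adjusted p = 0.028). The value of DN 1 at 1441897_at was -2.43. For Mapk14, 2 of its 6 probe sets were called lower in CD8SP (-0.76 and -0.88), and the others differed from DP by -0.27 to -0.05 there.

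Other calls also rested on how probe sets were combined or on which arrays were fitted. With the probe set of smallest spread, Mapk11 in CD8SP against DP was 0.16 (adjusted p = 0.293), Map3k20 in CD4SP against DP -0.13 (adjusted p = 0.371) and in CD8SP 0.29 (adjusted p = 0.0445, the opposite direction), and Map3k7 in CD8SP -0.29 (adjusted p = 0.0682). With it Mapk6 turned from DN to DP (-0.27, adjusted p = 0.0383) and lost its calls in CD4SP against DP (-0.25, adjusted p = 0.0602) and against CD8SP (0.29, adjusted p = 0.0651). When the fit was limited to the 6 single-positive arrays, the CD4SP against CD8SP calls of Map3k1, Map3k4, Map3k7, Map4k4, Mapk6 and Mapk8 were lost, with adjusted p of 0.0589 to 0.13. Those of Map2k6, Map3k5, Map4k5, Mapk7 and Mapk11 were kept.

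**Figure D4:**
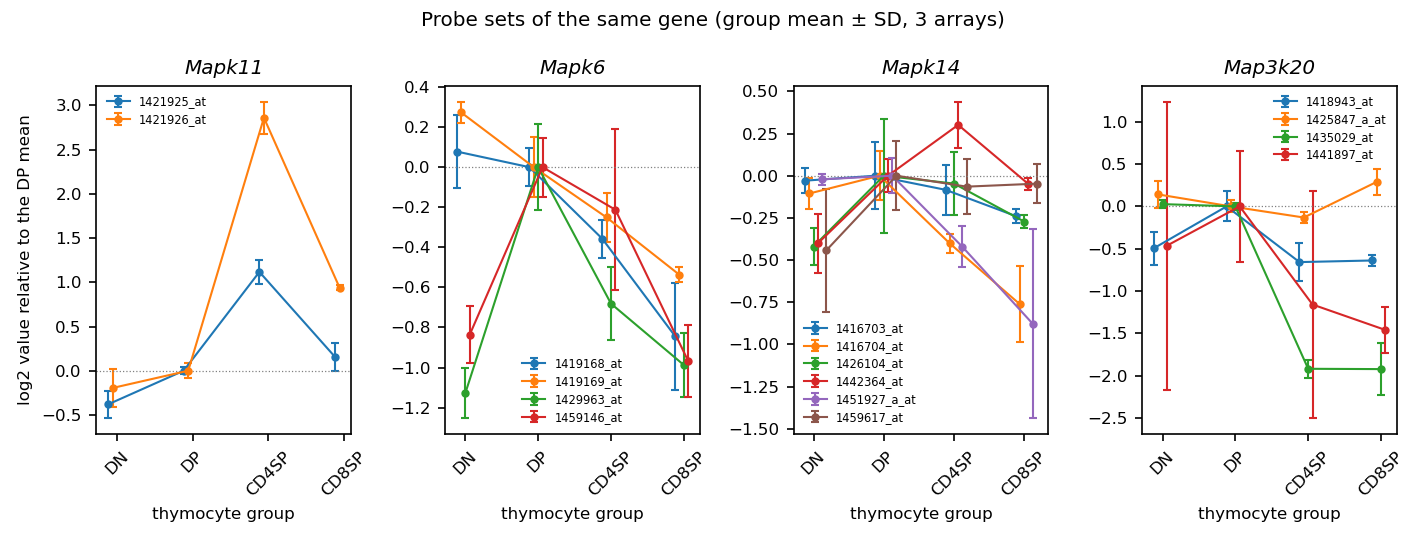
Group mean and SD (3 arrays) of the log2 value relative to the DP mean for each probe set of Mapk11, Mapk6, Mapk14 and Map3k20, by thymocyte group. The Mapk11 probe sets differ in size in CD4SP (2.86 and 1.12), and the Mapk6 probe sets separate in DN.

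Other genes of the pathway were read from 4 lists. Of 22 measured genes of the RAF tier, scaffolds and other cascade inputs, 11 rose and 2 fell from DN to DP (59.1% called), 3 rose and 8 fell in CD4SP (50%), and 3 rose and 11 fell in CD8SP (63.6%). Between the single-positive subsets 6 were higher in CD4SP and 0 lower (27.3% called). Of all genes, 36.6%, 32.7%, 39% and 12.7% were called in these comparisons, in the same order. The 6 became 2 when CD4SP 3 was left out or the fit held the 6 arrays alone. Braf, a RAF kinase at the MAP3K position of the ERK arm, rose from DN to DP by 0.55 ± 0.08 (adjusted p = 0.000183), fell by 0.36 in CD4SP and 0.71 in CD8SP, and was higher in CD4SP than in CD8SP by 0.35 (adjusted p = 0.0124), the last lost without CD4SP 3 (0.32, adjusted p = 0.0571). Gadd45a, whose protein activates MEKK4, rose from DN to DP by 1.55 ± 0.18 (adjusted p = 5.34e-05) and fell by 1.08 in CD4SP and 1.98 in CD8SP. Its relative Gadd45b went against the majority of the list and rose by 1.45 in CD4SP (adjusted p = 3.12e-05) and 0.98 in CD8SP. Pebp1, the RAF kinase inhibitor protein, fell from DN to DP by 1.36 ± 0.09 (adjusted p = 1.41e-06) and rose by 0.38 and 0.46 in the single-positive subsets. Ksr2, a scaffold, fell by 0.72 from DN to DP and rose by 0.85 and 1.11. The TAO kinases Taok1 and Taok3, which act as MAP3Ks, fell by 0.45 and 0.50 in CD4SP and by 0.66 and 0.69 in CD8SP, and the scaffold Spag9 by 0.53 and 0.78. From DN to DP, Mapk8ip3, a JNK scaffold, rose by 0.79 (adjusted p = 2.49e-05) and Taok1 by 0.61 (adjusted p = 8.04e-05).

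Of 7 measured kinases that MAP kinases activate, 1 rose and 2 fell from DN to DP (42.9% called, against 36.6% of all genes). In CD4SP 3 rose and 1 fell (57.1%, against 32.7%), and in CD8SP 2 rose and 2 fell (57.1%, against 39%). Between the single-positive subsets 1 was higher in CD4SP (14.3%, against 12.7%). Mapkapk3, a p38 target, was at 0.36, 0.82 and 0.94 in DN, -0.18, 0.09 and 0.10 in DP, 2.81, 2.69 and 2.53 in CD4SP and 2.48, 2.41 and 2.38 in CD8SP. The single-positive arrays were above all others. Mapkapk3 rose by 2.68 ± 0.15 in CD4SP (adjusted p = 2.5e-07) and 2.42 in CD8SP (adjusted p = 4.65e-07), and Mapkapk2 by 0.94 and 0.72. Both fell from DN to DP, by 0.70 and 0.63. Rps6ka5 (MSK1) fell by 1.62 ± 0.10 in CD4SP (adjusted p = 5.29e-07) and 1.70 in CD8SP (adjusted p = 3.53e-07). Mknk1 rose by 0.39 from DN to DP and fell by 0.36 in CD8SP, the latter lost without DP 3 (-0.31, adjusted p = 0.0502). Mknk2 rose by 0.36 in CD4SP and was higher there than in CD8SP by 0.31 (adjusted p = 0.0269), lost without any of the CD4SP arrays or CD8SP 3 (0.27 to 0.32, adjusted p = 0.0622 to 0.091). Without DN 3 the count that rose from DN to DP was 2.

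Of 12 transcription factors known as MAP kinase targets, 6 rose and 1 fell from DN to DP (58.3% called, against 36.6% of all genes). In CD4SP 3 rose and 2 fell (41.7%, against 32.7%), and in CD8SP 2 rose and 4 fell (50%, against 39%). Between the single-positive subsets 1 was higher and 1 lower in CD4SP (16.7%, against 12.7%). Egr1, an immediate early gene, rose at both steps: by 1.22 ± 0.19 from DN to DP (adjusted p = 0.000541), by 1.80 from DP to CD4SP (adjusted p = 3.39e-05) and by 1.22 to CD8SP (adjusted p = 0.000477). Mef2a, a target of p38 and ERK5, rose from DN to DP by 1.46 ± 0.10 (adjusted p = 1.12e-06) and fell by 1.67 in CD4SP and 1.76 in CD8SP. Mef2d and Elk4 rose from DN to DP by 0.71 and 0.48, and Mef2c fell by 1.96 (adjusted p = 0.0182), lost without DN 2 or DN 3 (-1.58 to -1.46, adjusted p = 0.0705 to 0.0727). Jun fell by 1.44 in CD4SP and 1.63 in CD8SP, and Srf rose by 0.53 and 0.40, the latter lost without DP 1, CD8SP 2 or CD8SP 3 (0.32 to 0.36, adjusted p = 0.0582 to 0.0676). Fos rose by 1.38 in CD4SP (adjusted p = 0.0254), lost without DP 1 or any CD4SP array (1.06 to 1.45, adjusted p = 0.0523 to 0.0972). Atf2 was higher in CD4SP than in CD8SP by 0.42 ± 0.07 (adjusted p = 0.00427) and fell by 0.56 in CD8SP. Jund was lower in CD4SP than in CD8SP, by -0.42 (adjusted p = 0.0396), a call lost without any DP array, CD4SP 1, CD4SP 2, DN 3, CD8SP 2 or CD8SP 3 (-0.42 to -0.35, adjusted p = 0.0547 to 0.133). Without DP 1 the number higher in CD4SP than in CD8SP was 2. Over 6 dissociation and heat-shock genes measured, 3 rose and 1 fell in CD4SP (66.7% called, against 32.7% of all genes). In CD8SP 1 rose and 2 fell (50%, against 39%). Fos and Jun of this list are also among the transcription factors above, and Dusp1 is among the phosphatases below. The rises in CD4SP were those of Fos, Dusp1 and Ier2, and the fall that of Jun. Hspa1a and Hspa1b, the heat-shock genes, differed from DP by 0.10 and 0.50 in CD4SP and were not called. The part of dissociation in the immediate early genes was not tested.

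Of 10 MAP kinase phosphatases of the DUSP family, which switch MAP kinases off, 4 rose and 1 fell from DN to DP. That was 50% called, against 36.6% of all genes. In CD4SP 5 rose and 1 fell (60%, against 32.7%), and in CD8SP 3 rose and 4 fell (70%, against 39%). Between the single-positive subsets 3 were higher in CD4SP (30%, against 12.7%). Dusp5, whose protein acts on ERK in the nucleus, was at -0.65, 0.08 and 0.05 in DN, -0.07, 0.01 and 0.06 in DP, 1.23, 0.996 and 1.26 in CD4SP and -0.33, -0.38 and -0.07 in CD8SP. CD4SP was above every other array. It rose in CD4SP by 1.16 ± 0.18 (adjusted p = 0.000453) and was higher there than in CD8SP by 1.43 (adjusted p = 0.000645). Dusp1 rose from DN to DP by 0.51 and to CD4SP by 1.01 ± 0.11 (adjusted p = 3.3e-05), fell in CD8SP by 0.36 (lost without DP 3 or CD8SP 1, -0.34 to -0.25, adjusted p = 0.0544 to 0.069) and was higher in CD4SP than in CD8SP by 1.38 (adjusted p = 3.61e-05). Dusp10, which acts on JNK and p38, rose from DN to DP by 0.94, fell in CD8SP by 0.87 and was higher in CD4SP than in CD8SP by 1.16 (adjusted p = 0.00127). Dusp16, also acting on JNK and p38, rose by 1.45 from DN to DP and fell by 1.74 in CD4SP and 1.25 in CD8SP. Dusp6, an ERK phosphatase, rose by 1.24 ± 0.33 from DN to DP (adjusted p = 0.0126) and by 1.86 in CD4SP (adjusted p = 0.00123); the value on DN 1 was -2.22, against -0.82 and -0.68 on DN 2 and DN 3, and without DN 1 the first rise was 0.75 (adjusted p = 0.00462). Dusp2 rose by 1.20 in CD4SP and 1.45 in CD8SP, and Dusp7 by 1.23 and 0.99, after a fall of 0.33 from DN to DP (adjusted p = 0.0461), which every omission of 1 array but those of DP 3 and CD4SP 2 ended (-0.35 to -0.26, adjusted p = 0.0502 to 0.161). Dusp8 rose in CD8SP by 0.36, lost without DP 1, DP 2 or any CD8SP array (0.33 to 0.36, adjusted p = 0.0521 to 0.0825). Dusp4 fell there by 0.75 (adjusted p = 0.046), lost without DP 2, DP 3, any CD4SP array, CD8SP 1 or CD8SP 2 (-0.84 to -0.52, adjusted p = 0.0567 to 0.159), and the count of 4 falls became 2 without DP 3 or CD8SP 1.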

How the data were processed

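RNA from 12 sorted thymocyte samples, 3 in each of 4 groups, was hybridised to Affymetrix mouse arrays. The authors deposited 1 table of values taken as log2 (no base is given in the sources used here), with the mean of the 3 DP arrays subtracted from each of 45101 probe sets (largest absolute DP mean 1.27e-06). The submitters' processing notes name MAS5, with no version. DN 1 was deposited with 3 decimals. Depth does not apply to arrays; their number limits the precision.

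Probe sets with exactly 1 symbol in the platform annotation and no control prefix (34945; 932 had several symbols and 9211 none) were averaged per gene. Differences were fitted with limma 3.58.1 in R 4.3.3 on all 12 arrays (lmFit, eBayes, no covariate), which share 1 estimate of the spread, with Benjamini-Hochberg adjustment over 18193 genes and a threshold of 0.05. The procedure was tested on simulated data. Every member is named. Array values are given for the classical kinases measured and for up to 6 members of each tier with the largest called difference and no overlap of arrays, with Map3k2 added after its values were seen. From each pathway list, up to 4 genes with the lowest adjusted p per comparison and called genes against their list's majority were named. The members and lists were chosen with earlier results of these data known. Replicate numbers were not treated as pairing the arrays. Promoters came from RefSeq (GRCm38.p6), matched by symbol. Alternatives changed the arrays used, their weights, the scaling, the summary of probe sets and the variance model.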

Additional observations from a re-analysis of the deposited data

Results flagged for a closer look

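For 11 members the change from DP differed between the single-positive subsets by the test of the difference itself, the CD4SP minus CD8SP term in limma. In the p38 arm, the difference was 1.44 on the log2 scale for Mapk11 (p38 beta), higher in CD4SP, and 1.22 for Map2k6 (MKK6), lower in CD8SP. Mapk7 (ERK5) differed by 0.77. In the MAP4K tier, Map4k5 differed by 1.07 and Map4k4 by 0.27. Among the MAP3K genes the difference was 0.70 for Map3k5 (ASK1), 0.54 for Map3k7 (TAK1), 0.48 for Map3k1 (MEKK1) and 0.38 for Map3k4 (MEKK4). Mapk6 (ERK3) differed by 0.46 and Mapk8 (JNK1) by 0.35. All 11 were higher in CD4SP on each of the 3 arrays than on any CD8SP array. Over 21 or 22 alternatives each, the call was lost in 0 for Mapk11 and Map2k6, in 1 (quantile normalization) for Mapk7, Map4k5 and Map3k5, in 2 for Map3k1, in 4 for Map3k7 and Mapk8, in 5 for Mapk6, in 7 for Map3k4 and in 12 for Map4k4. Of the 11, 5 were called in the fit on the 6 arrays compared, 6 without CD4SP 3 and 2 under quantile normalization. The values were relative to DP before that normalization, so calls lost under it cannot be read as limits of single genes alone. Groups of 3 arrays are too small for the check on single outlying samples.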

How the results depend on the processing

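Of the 62 calls among the members, leaving out 1 array at a time ended 4 to 13. The counts then ranged from 9 to 13 higher and 1 to 4 lower from DN to DP, 7 to 9 and 5 to 8 in CD4SP against DP, 5 to 8 and 11 to 13 in CD8SP against DP, and 6 to 11 and 0 to 2 in CD4SP against CD8SP. Quantile normalization, which gives every array the same distribution of values, ended 35 calls. It left 7 higher and 1 lower, 4 and 4, 4 and 5, and 2 and 0 in the same order of comparisons. Of all genes, 1.26% were then called in CD4SP against CD8SP, against 12.7% as reported. Quantile normalization was applied to values already relative to the DP mean, so the DP arrays held only their spread around 0. The other arrays also held differences between groups. Giving them 1 distribution changes both, so a call lost under it cannot be read as a limit of that gene alone. Why these calls ended was not tested. The fit on the 6 arrays compared left 5 members higher in CD4SP than in CD8SP. Probe sets without a suffix cover 29 members and gave 7 higher there, 4 lower in CD4SP and 8 lower in CD8SP than in DP. Lower calls in CD4SP against CD8SP, 0 as reported, were 2 with array weights, 2 with the probe set of smallest spread and 1 without DN 1 and CD8SP 1.

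The probe set of smallest spread reversed Mapk6 from DN to DP (-0.27), Mapk14 in CD4SP (0.30), Map3k20 in CD8SP (0.29), Jund (-0.32) and Lamtor2 (0.33) from DN to DP and Dusp8 in CD8SP (-0.067). The causes were not tested. Fitting the replicate number as a block kept 60 of the 62 calls, ended those of Map2k3 in CD8SP (-0.22) and Map3k8 in CD4SP (0.76) and added 7; the counts were 14 higher and 3 lower, 7 and 8, 8 and 13, and 14 and 0. Residual correlations of same-numbered arrays were 0.11 to 0.16 for number 1, -0.03 to 0.09 for number 2 and 0.02 to 0.14 for number 3, against -0.16 to 0.08 between numbers. The labels do not say what the numbers share, so they were not used as pairs. Yet 11 of 12 arrays correlated best with an array of their own number, a hint from the data and not from the design. Centring arrays on their medians, the median of probe sets and a variance trend kept every count within 1.5 times. Absolute level and signal over background could not be read.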
